A study of Mus musculus with 96 samples.

Results

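The 2 clones described here, mCHERRY_2_Barcode_88201 and mCHERRY_2_Barcode_205681 (Barcode_88201 and Barcode_205681 below), were GMP-derived leukaemia clones that held a few percent of the GMP-library reads in most recipients. They were chosen by their middle rank among the leading GMP clones, so their levels and their rise over the pool are descriptions and were not tested. They are 2 of 3078 mCherry barcodes and of 4675 barcodes in all, and both were listed in the tables of both hosts. Over the 8 mice given GMP cells alone they ranked 4 and 5, with mean shares of 6.31% ± 1.91 and 4.98% ± 1.32 (SD, n = 8 mice each). The clone just above held 10.3% and the one just below 4.71%.

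Lineage barcoding with SPLINTR puts a short DNA tag into the genome of a founder cell, and its descendants inherit the tag, so the share of reads with a given tag stands for the size of that clone. MLL-AF9 is a fusion oncogene found in acute leukaemia, and in mice it can transform both stem-cell-enriched and committed progenitors. GMP (granulocyte-monocyte progenitors) are committed myeloid progenitors and carried the mCherry barcode library here. LSK cells, a less mature fraction in which haematopoietic stem cells are found, carried the GFP library. When many clones are transplanted together a few usually come to dominate the leukaemia.

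Donor cells came from C57BL/6 mice (female, 6 to 8 weeks old), were transduced with an MLL-AF9 retrovirus and were grown with IL-3, IL-6 and SCF. All groups therefore shared the oncogene and the culture, and each origin was represented by a single barcoded pool, so that p-values measure the spread between recipients of that pool. Recipients were Ptprca mice, which are immunocompetent, or NSG mice, a strain without B, T or NK cells. The groups were Ptprca mice given GMP cells (mice 5 to 8), Ptprca mice given LSK and GMP cells mixed (mice 17 to 20), NSG mice given GMP cells (mice 13 to 16) and NSG mice given the mixture (mice 21 to 24). The age of the recipients and the time after transplantation are not given in the sources used here. Barcodes were counted in bone marrow and spleen, giving 31 libraries of 16 mice, since mouse 24 had a spleen library only. Mice that received the mixture got GMP cells both with LSK cells present and as a smaller part of the graft, and these conditions cannot be told apart.

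Each library used here rested on 4257581 to 7814019 barcode reads, as recovered from the deposited values with the smallest value of a library taken as a single read. True read numbers could be a multiple or a fraction of these, and the intervals below rest on the recovered numbers. A share below is the percentage of the mCherry-library reads of a library that carry the clone's barcode, and the mCherry reads made up at least 99.0% of reads in recipients of GMP cells and 20.4 to 67.6% in recipients of the mixture. The clones had at least 10960 (Barcode_88201) and 3174 (Barcode_205681) reads in every library of these mice, and no 95% Wilson interval of a share was wider than 0.0811 percentage points. These intervals take in counting error alone, as reads made by PCR are not separate molecules, and the spread between tissues and mice was far larger. In the 14 libraries of mice given LSK cells alone, where these barcodes do not belong, Barcode_88201 was present at 0.264 to 26.7 CPM (counts per 1000000 barcode reads) and Barcode_205681 at 0.118 to 47.4 CPM. The lowest values in mice given GMP cells were 1430 and 461 CPM. Of the 31 libraries, 6 are called doubtful here, because GFP barcodes reached 0.1% in a mouse given GMP cells alone or barcodes seen in none of the pools reached 1%. They were the marrow of mice 6 and 8 and the spleen of mice 7, 13, 14 and 18.

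The clones started from very different sizes. In the GMP pool before transplantation Barcode_88201 held 0.436% of mCherry reads (Wilson 95% interval 0.430 to 0.441%, 21147 reads) and ranked 50 of 1050 clones above 0. Barcode_205681 held 0.0611% (0.0590 to 0.0634%, 2967 reads) and ranked 292. In the mixed pool, where mCherry made up 49.4% of reads, the shares were 0.428% (0.420 to 0.437%, rank 51 of 989) and 0.0555% (0.0524 to 0.0587%, rank 316). Barcode_88201 was thus 7.13 times as abundant as Barcode_205681 among GMP cells before transplantation and 7.72 times in the mixture.

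In the recipients that gap had mostly closed. Both clones exceeded their share of the matching pool in 31 of 31 libraries. Barcode_88201 was on average 14.5 ± 4.39 times its pool share in the 8 mice given GMP cells and 15.5 ± 6.62 times in the 8 given the mixture. Barcode_205681, which began lower, was 81.5 ± 21.6 and 75.1 ± 32.5 times its pool share (SD over mice, each mouse being the mean of its tissues). Barcode_88201 remained the larger in 13 of 16 mice and in 19 of 31 libraries, 11 of 15 in marrow and 8 of 16 in spleen. These values come from the contrast that chose the clones and carry no test.

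Among mice given GMP cells, the mean of the marrow and spleen shares of Barcode_88201 was 6.59, 4.14, 4.08 and 6.35% in Ptprca mice 5 to 8 and 5.65, 8.56, 9.45 and 5.67% in NSG mice 13 to 16. This mean weights the tissues equally and does not measure the clone's part of the whole leukaemia. The groups overlapped. Barcode_205681 held 4.88, 7.39, 4.61 and 5.85% in the same Ptprca mice and 5.18, 4.76, 2.72 and 4.47% in the same NSG mice. Only mouse 6, at 7.39%, stood above 6% for Barcode_205681, whereas Barcode_88201 did so in 4 of these 8 mice.

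Among mice given the mixture, Barcode_88201 held 4.97, 6.32, 3.65 and 4.02% in Ptprca mice 17 to 20 and 9.91, 7.24, 5.47 and 11.7% in NSG mice 21 to 24. All but mouse 23 of the NSG mice lay above every Ptprca mouse, though the value of mouse 24 is that of its spleen alone. Barcode_205681 held 4.57, 1.11, 3.76 and 3.27% in the Ptprca mice and 6.87, 6.21, 3.29 and 4.21% in the NSG mice. Mouse 18, at 1.11%, had the lowest mean share of Barcode_205681 of the 16 mice and at the same time a share of Barcode_88201 higher than in the other Ptprca mice given the mixture.

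Between hosts, the shares of Barcode_88201 lay furthest apart in bone marrow. The main comparison was of the mean of both tissues, given below, and marrow alone was an alternative to it. In Ptprca mice given GMP cells its marrow share was 3.52, 3.98, 3.76 and 3.93%, with an SD of 0.206 points. In NSG mice given GMP cells the marrow share was 7.12, 14.7, 10.8 and 8.80%. Every NSG marrow lay above every Ptprca marrow. With the mixture the marrow shares were 5.87, 4.75, 3.17 and 3.39% in Ptprca mice and 13.7, 7.20 and 10.2% in NSG mice, again without overlap. How many of the other clones separated in this way is not given here, so the separation is not shown to be particular to Barcode_88201. Over both kinds of graft the mean was 4.05% ± 0.879 (SD, n = 8) in Ptprca marrow and 10.4% ± 2.98 (n = 7) in NSG marrow.

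Clones were compared by limma on log2 of the share (per 1000000 mCherry reads, plus 10), fitted over all clones with a mean of at least 100 per 1000000 and adjusted by Benjamini-Hochberg over all of them. The fit of bone marrow alone was planned as an alternative to the mean of both tissues. It gave for Barcode_88201 a Ptprca minus NSG difference of -1.40 log2 in GMP recipients (SE 0.34, limma adjusted p = 0.00295) and -1.27 log2 in mixed recipients (SE 0.37, limma adjusted p = 0.0123), which are 2.63- and 2.41-fold lower shares in Ptprca marrow. These p-values are not independent of the choice of the clones, as the next paragraph sets out. Their adjustment covers the clones but not the choice of marrow over spleen or the mean of both tissues. That mean gave limma adjusted p = 0.208 in GMP and 0.0389 in mixed recipients. In that fit 46.9% of 98 clones were called in GMP recipients and 34.7% in mixed recipients, so being called was common among clones that passed the minimum. Of the called clones 44 were higher and 2 lower in Ptprca marrow in GMP recipients, and 33 higher and 1 lower in mixed recipients. Barcode_88201 was that 1 clone and, with mCHERRY_2_Barcode_457303, 1 of those 2. The counts depended on the minimum. At 1000 per 1000000, 8 of 31 clones were called in GMP and 14 of 31 in mixed recipients. With no minimum they were 29 and 14 of 1190. The split into higher and lower depended on the scale. With each mouse centred on its own median clone, a separate fit that moved every clone by -5.94 log2 in GMP and -4.28 log2 in mixed recipients, 0 clones were called higher and 32 lower in Ptprca marrow in GMP recipients, and 2 higher and 16 lower in mixed recipients. Barcode_88201 was lower in Ptprca marrow on both scales, which had to follow, since the centring moved every clone further down. Without the doubtful libraries the differences were -1.46 log2 (limma adjusted p = 0.0153) and -1.27 log2 (limma adjusted p = 0.0181). The first call was lost without the trended prior (limma adjusted p = 0.0556). In mixed recipients the call was lost without that prior (0.138), with no minimum (0.0572), with CPM as deposited (-0.66 log2, 0.243), and without mouse 21 (-1.04 log2, 0.0532).

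The rank of Barcode_88201 by host was among the earlier results known when the clones were proposed, so this contrast is not independent of their choice. The 3 clones ranked above it held 63.8% ± 4.61 of Ptprca marrow (n = 8) and 67.5% ± 6.24 of NSG marrow (n = 7). Of the reads outside those 3 clones, Barcode_88201 held 8.59 to 17.6% in Ptprca marrow and 21.7 to 47.2% in NSG marrow, so the groups did not overlap on that scale either. The separation of other clones on that scale is not given here.

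In spleen the hosts did not separate. Barcode_88201 held 9.65, 4.30, 4.40 and 8.77% in the spleens of Ptprca mice given GMP cells and 4.19, 2.39, 8.09 and 2.55% in those of NSG mice. With the mixture the spleens held 4.07, 7.89, 4.13 and 4.65% in Ptprca mice and 6.14, 7.27, 0.701 and 11.7% in NSG mice, whose range enclosed that of the Ptprca mice. The spleen differences were 0.74 log2 in GMP recipients (SE 0.67, 95% interval -0.65 to 2.12, limma adjusted p = 0.377, 33.3% of 51 clones called) and 0.19 log2 in mixed recipients (SE 0.67, interval -1.20 to 1.57, limma adjusted p = 0.847, 35.3% called).

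With both tissues averaged, Barcode_88201 differed between hosts by -0.47 log2 in GMP recipients (SE 0.31, 95% interval -1.12 to 0.18, limma adjusted p = 0.208), where 46.3% of 82 clones were called. In mixed recipients it was lower in Ptprca mice by 1.77-fold (-0.83 log2, SE 0.31, limma adjusted p = 0.0389), where 41.5% of clones were called, 31 higher and 3 lower. That call did not hold under several other settings, among them leaving out mouse 17, 19, 20, 21 or 24 (limma adjusted p = 0.0612, 0.0979, 0.0905, 0.0877 and 0.0967) and leaving out the doubtful libraries (-0.93 log2, limma adjusted p = 0.0716). The median of the differences over all clones was 2.69 log2 in GMP recipients and 1.91 log2 in mixed recipients. In the separate fit centred on each mouse's own median clone, which moved every clone by -4.33 and -3.68 log2, Barcode_88201 was at -4.80 and -4.51 log2 (limma adjusted p = 6.21e-08 and 2.17e-07), with 3 clones called higher and 25 lower in GMP recipients and 4 higher and 21 lower in mixed recipients.

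On the scale of shares Barcode_205681 showed no called host difference. Its marrow share was 7.38, 8.49, 3.59 and 6.996% in Ptprca mice given GMP cells and 4.34, 4.45, 3.66 and 1.26% in NSG mice, where only mouse 7 of the Ptprca mice fell within the NSG range. With the mixture the marrow held 2.26, 0.440, 0.876 and 5.83% in Ptprca mice and 13.6, 0.654 and 6.06% in NSG mice. The marrow difference between hosts was 1.04 log2 in GMP recipients (SE 0.85, limma adjusted p = 0.286) and -1.33 log2 in mixed recipients (SE 0.92, limma adjusted p = 0.288), the latter being called without mouse 22 (-2.60 log2, limma adjusted p = 0.0211). The centred fit moved every clone by -5.94 log2 in GMP and -4.28 log2 in mixed recipients. With that shift both marrow differences were called, at -4.91 log2 (limma adjusted p = 0.00022, the direction turned) and -5.61 log2 (limma adjusted p = 0.000195).

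In spleen Barcode_205681 held 2.39, 6.30, 5.64 and 4.70% in Ptprca mice given GMP cells and 6.02, 5.07, 1.78 and 7.68% in NSG mice, whose range enclosed that of the Ptprca mice. With the mixture it held 6.88, 1.77, 6.65 and 0.712% of Ptprca spleens and 0.110, 11.8, 0.518 and 4.21% of NSG spleens, where mice 21 and 22 were more than 100-fold apart. Averaged over tissues the host difference was 0.43 log2 in GMP recipients (95% interval -0.44 to 1.29, limma adjusted p = 0.386) and -0.81 log2 in mixed recipients (interval -1.67 to 0.05, limma adjusted p = 0.115). Neither was called. The fit centred on each mouse's median clone moved every clone by -4.33 log2 in GMP and -3.68 log2 in mixed recipients. There Barcode_205681 was at -3.90 log2 (limma adjusted p = 1.27e-06) and -4.49 log2 (limma adjusted p = 2.17e-07), lower in Ptprca mice. Its direction in GMP recipients was thereby turned. These values are relative to the median clone and carry that shift. The mean shares were 5.68% in Ptprca and 4.28% in NSG mice given GMP cells, and 3.18 and 5.15% with the mixture.

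Barcode_88201 leaned to marrow in most NSG mice and to spleen in most Ptprca mice. Its share was higher in marrow than in spleen in 1 of 8 Ptprca mice, mouse 17, and in 6 of 7 NSG mice, the exception being mouse 22 with 7.20 and 7.27%. In Ptprca mice the marrow minus spleen difference was -0.50 log2 (SE 0.38, 95% interval -1.29 to 0.29, limma adjusted p = 0.279), and 48.7% of 78 clones were called there, 35 of them higher in marrow and 3 lower. That count depended on the fit, since edgeR called 4 clones, 3 higher and 1 lower, and edgeR with TMM 5, all lower. With each library centred on its median clone, which moved every clone by -2.10 log2, limma called 8, all lower in marrow, and Barcode_88201 was at -2.60 log2 (limma adjusted p = 8.96e-05). In NSG mice the difference was 1.53 log2, a 2.89-fold higher share in marrow (SE 0.41, interval 0.68 to 2.38, limma adjusted p = 0.0536). This was the smallest p of 78 clones in NSG mice, of which 0% were called by limma and by edgeR while 9 had an unadjusted p under 0.05. The difference was called without mouse 15 (1.70 log2, limma adjusted p = 0.0295), without mouse 22 (1.95 log2, 0.0109) and in the unpaired fit (1.53 log2, 0.0446), and was 1.39 log2 without the doubtful libraries (0.542).

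The test of the tissue lean between hosts gave -2.03 log2 for Barcode_88201 (SE 0.55, 95% interval -3.19 to -0.87, limma adjusted p = 0.0479), with 3.85% of 78 clones called, 2 in the other direction and 24 with an unadjusted p under 0.05. It lay just inside the threshold, and leaving out any of the 8 Ptprca mice or NSG mouse 14, 21 or 23 took it outside, with limma adjusted p of up to 0.126. Over all mice left out in turn the differences lay between -2.45 and -1.48 log2. Without the doubtful libraries, which takes 6 mice out of the paired fit, it was -2.16 log2 (limma adjusted p = 0.332). The median of the differences over all clones was 1.65 log2, in the opposite direction. In the centred fit, which moved every clone by -2.43 log2, the value for Barcode_88201 was -4.46 log2 (limma adjusted p = 1e-05) and 8 clones were called, all in its direction. By edgeR 0 clones were called.

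The ratio of marrow to spleen in single NSG mice varied widely. In mouse 14 the marrow held 14.7% and the spleen 2.39%, a 6.16-fold gap, and in mouse 16 the shares were 8.80 and 2.55%. The largest gap, 14.6-fold, was that of mouse 23, with 10.2% in marrow and 0.701% in spleen. In that spleen the 3 leading clones took 97.7% of mCherry reads and mCherry barcodes were 20.4% of all reads, the lowest of any mixed recipient, yet Barcode_88201 still ranked 4 there. Of the reads outside the 3 leading clones it held 30.4% in that spleen and 29.7, 29.9 and 29.0% in the spleens of mice 21, 22 and 24, a likeness that was noticed after the values were seen and was not tested.

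Barcode_205681 had no steady lean. Marrow was higher than spleen in 4 of 8 Ptprca mice and 3 of 7 NSG mice. The mean marrow minus spleen difference was -0.19 log2 in Ptprca mice (95% interval -1.96 to 1.58, limma adjusted p = 0.870) and 0.77 log2 in NSG mice (interval -1.14 to 2.69, limma adjusted p = 0.964), and the difference between hosts was -0.96 log2 (interval -3.57 to 1.64, limma adjusted p = 0.602). Without mouse 21 the NSG value was -0.43 log2 and the difference between hosts 0.24 log2.

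The tissues of a mouse lay further apart for Barcode_205681 than for Barcode_88201, in either direction. The larger tissue share was 3.10 times the smaller in the median mouse, against 1.66 times for Barcode_88201 (n = 15 mice each). The same gap had a median of 2.38 times over the 82 tested clones and of 3.47 times over the 26 clones with a mean of at least 1000 per 1000000, among which Barcode_205681 had the 12th smallest gap and Barcode_88201 the third smallest. Among all 82 tested clones Barcode_205681 had the 58th smallest gap and Barcode_88201 the 22nd. In the 8 mice given GMP cells the gap of Barcode_205681 had a median of 1.53-fold and a maximum of 6.09-fold. In the 7 mice given the mixture with both tissues it was 3.04-fold at the least, 8.19-fold in the median and 124-fold in mouse 21, where the marrow held 13.6% and the spleen 0.110%. Mouse 22 showed the reverse, with 0.654% in marrow and 11.8% in spleen. For Barcode_88201 the median gap was 1.97-fold with GMP cells and 1.44-fold with the mixture. This pattern was noticed in the values and was not tested. The GMP-derived cells also made up a smaller part of the graft in those mice, and the part played by that was not tested.

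The presence of LSK cells went with no called difference in either clone. For Barcode_88201 the mixed minus GMP difference was -0.15 log2 in Ptprca mice (95% interval -0.80 to 0.50, limma adjusted p = 0.902, 2.44% of 82 clones called) and 0.20 log2 in NSG mice (interval -0.45 to 0.85, limma adjusted p = 0.871, 8.54% called). These intervals allow changes of up to 1.81-fold. For Barcode_205681 the difference was -0.99 log2 in Ptprca mice (interval -1.85 to -0.13, limma adjusted p = 0.214), where the 4 mice given the mixture, at 1.11 to 4.57%, all lay below the 4 given GMP cells, at 4.61 to 7.39%. How many other clones separated in this way is not given here. The median of the differences over all clones was -0.66 log2 there, and in the centred fit, which moved every clone by 1.23 log2, Barcode_205681 was at 0.24 log2 (limma adjusted p = 0.854). In NSG mice its difference in shares was 0.25 log2 (interval -0.62 to 1.11, limma adjusted p = 0.871). The difference between hosts was -1.24 log2 for Barcode_205681 (limma adjusted p = 0.287) and -0.36 log2 for Barcode_88201 (limma adjusted p = 0.736), with 1.22% of clones called. With CPM as deposited, which also carries the dilution by LSK reads, Barcode_205681 was lower in mixed Ptprca recipients by 1.71 log2 and called (-1.71 log2, limma adjusted p = 0.0148), and Barcode_88201 was lower and called in mixed NSG recipients (-1.01 log2, limma adjusted p = 0.0366).

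No difference in the ratio of the pair by host, graft or tissue passed its test. The log2 ratio of Barcode_88201 to Barcode_205681 averaged 0.53 ± 0.81 (SD, n = 16 mice), against 2.83 and 2.95 in the GMP and mixed pools. Taken from the mean shares of a mouse, its highest value was 2.51, in mouse 18. It differed by -0.46 between Ptprca and NSG mice (exact two-sided permutation within graft, p = 0.286, adjusted 0.572 over 3 tests), by 0.40 between mixed and GMP recipients (exact permutation within host, p = 0.381, adjusted 0.572) and by 0.27 between marrow and spleen (exact two-sided sign-flip permutation, p = 0.722, adjusted 0.722, positive in 9 of 15 mice). Without mouse 18 the host difference was -0.75 (exact permutation p = 0.0118, unadjusted). The 2 clones leaned to opposite tissues in 8 of 15 mice. In single libraries the log2 ratio ran from -1.59 in the spleen of mouse 16 to 5.80 in that of mouse 21. The marrow of mice 18 and 22, at 3.43 and 3.46, also lay above both pools.

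Across the 31 libraries both clones varied less than most tested clones, although Barcode_205681 ran from 0.110 to 13.6%. The clones were chosen by their rank, so this is a description. The SD of log2 share across libraries was 0.89 for Barcode_88201 and 1.61 for Barcode_205681, the fourth and the seventh lowest of 82 clones, whose median was 2.36. The 3 clones that outranked the pair were steadier than Barcode_88201. The log2 shares of the pair were scarcely related across libraries (Pearson r = 0.14 over 31 libraries that share mice and pools, given as a description), and within the 4 groups r ran from -0.69 to 0.51. The clones most like Barcode_88201 by that measure were mCHERRY_2_Barcode_222912 (r = 0.29), mCHERRY_2_Barcode_145794 (0.27) and mCHERRY_2_Barcode_457303 (0.26), and those most like Barcode_205681 were mCHERRY_2_Barcode_23793 (0.37), mCHERRY_2_Barcode_337156 (0.29) and mCHERRY_2_Barcode_547500 (0.26), of 81 clones compared in each case. All of these correlations were weak.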

How the data were processed

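Barcodes were counted in DNA of bone marrow and spleen. The labels give genomic DNA, while their extraction protocol describes a single-cell preparation. The deposited values are CPM (barcode counts scaled to 1000000 per library) and were made by the authors after filtering barcodes and joining PCR duplicates, summed or averaged not being stated. Bowtie 1.2.2 and R 3.6 were used, per the submitters' processing notes. Whole reads were recovered from the deposited CPM for 100% of values within 0.01 of a read, and a barcode that 1 table did not list counted as 0 there. The smallest value of a library was taken as 1 read, which could not be checked. From these reads the share of mCherry-library reads was computed, and the mean of both tissues stood for a mouse (spleen alone for mouse 24). Host and graft were compared in 1 limma 3.58.1 fit (lmFit, eBayes with trend) of 4 groups, and tissues by the differences within 15 mice, on log2 of the share per 1000000 plus 10, for clones with a mean of at least 100 per 1000000. Calls had a Benjamini-Hochberg adjusted p under 0.05. Alternatives comprised edgeR 4.0.16 on these reads (with TMM or without), other pseudocounts and minima, CPM as deposited, single tissues and each mouse left out. Alternatives to the marrow fit were chosen after seeing the data. The pairing of tissues comes from the mouse number in the labels. The limma fits were tried on simulated data in which the changed clones were far smaller than the members. Those simulations do not cover clones of the members' size. The members and lists were chosen with earlier results of these data known. The named clones were the members, the 3 most correlated with each, and clones called in the same direction in marrow, the last chosen after their values were seen.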

Additional observations from a re-analysis of the deposited data

Results flagged for a closer look

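In spleens of Ptprca mice given the mixture, mouse 18 held 7.89% of Barcode_88201 and lay far from the other 3, at 4.07 to 4.65%. The same mouse had a log2 ratio of Barcode_88201 to Barcode_205681 of 2.51, the highest of its group, whose mean was 0.72. Its spleen library is among the doubtful ones. In all, 26 groups of 4 or more samples were examined in this way and 2 gave such a sample, and chance gives about 1 in 20. The marrow minus spleen difference of Barcode_88201 was called as different between Ptprca and NSG mice (-2.03 log2, limma adjusted p = 0.0479), just inside the threshold. That call was lost in 11 of 16 fits without 1 mouse and kept in 4 of 15 other settings. By edgeR 0 clones were called.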

How the results depend on the processing

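Of 669 other settings over 23 results, 585 kept direction and side of the threshold, 39 lost the call, 14 gained one and 31 changed sign. Leaving out a mouse outside a contrast could not move its estimate, and most of the 23 results were not called to begin with. The count of 585 therefore does not measure how firm the calls were. Causes were not tested beyond the fewer samples or other clones a setting uses. Values are log2 differences, with limma adjusted p after a comma.

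For Barcode_88201 between hosts in mixed recipients, the call was lost at a minimum of 10 (-0.83, 0.0696) or none (-0.83, 0.437), without the trend (-0.83, 0.161), with CPM as deposited (-0.36, 0.414), without doubtful libraries (-0.93, 0.0716), with edgeR and TMM (-0.90, 0.0545) and with only the groups compared (-0.83, 0.1); spleen alone gave 0.19. Without 1 mouse it ran from -1.02 to -0.66. In marrow it was lost without a minimum (-1.27, 0.0572), without the trend (-1.27, 0.138) and with CPM (-0.66, 0.243), and ran from -1.51 to -1.04 without 1 mouse. In GMP recipients it was called in marrow alone (-1.40, 0.00295) and with centring on the median clone (-4.80, 6.21e-08), and was 0.74 in spleen alone; the marrow value was not called without the trend (-1.40, 0.0556).

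For Barcode_88201 the tissue difference between hosts was not called at a minimum of 10, 1000 or none (-2.03, 0.138, 0.052 and 0.466), without the trend (-2.03, 0.0904), with CPM (-2.07, 0.0585), without the 2 leading clones (-1.84, 0.131), without doubtful libraries (-2.16, 0.332), with edgeR (-1.99, 0.216) or TMM (-2.80, 0.17), or in GMP or mixed recipients alone (-2.14, 0.0744 and -1.93, 0.329); without 1 mouse it ran from -2.45 to -1.48. The NSG tissue difference was called at a minimum of 1000 (1.53, 0.0416), with centring (1.86, 0.0333) and in the fit without pairing, that is with no replicate block (1.53, 0.0446), and ran from 0.98 to 1.95 without 1 mouse. The Ptprca one was called with centring (-2.60, 8.96e-05) and with TMM (-1.93, 0.0377). Without the block no other call changed.

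With LSK cells, Barcode_88201 gave in NSG mice -1.01 with CPM and -0.075 without doubtful libraries, and in Ptprca mice 1.08 with centring, 0.14 with TMM and 0.13 in marrow; host by LSK presence gave 0.11 with CPM, 0.29 with centring and 0.13 in marrow.

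For Barcode_205681, LSK presence gave -0.90 with CPM and -1.80 in spleen in NSG mice, and -1.71 (called, 0.0148) with CPM and 0.24 with centring in Ptprca mice; host by LSK presence was 1.10 in spleen. Between hosts it gave -3.90 (called) with centring and -0.017 in spleen in GMP recipients, -4.49 (called) with centring and 1.09 in spleen in mixed recipients, and in marrow -4.91 (called) with centring and -1.08 with TMM in GMP and -5.61 (called) with centring in mixed recipients, where it ran from -2.60 to -0.41 without 1 mouse. Its tissue difference was 0.57 without doubtful libraries and 0.50 in GMP recipients alone in Ptprca mice, -0.56 in GMP recipients alone in NSG mice, and 1.05 between hosts there; without 1 mouse these ran from -0.84 to 0.15, from -0.43 to 2.34 and from -2.53 to 0.24.

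The ratio of the clones between hosts ran from -0.75 to -0.29 without 1 mouse and between tissues from -0.026 to 0.70; it was -0.31 between tissues in Ptprca mice alone and -0.041 with and without LSK cells in NSG mice alone. Counts of calls by edgeR were 0 and 4 for LSK presence and tissue in Ptprca mice, against 2 and 38 by limma, 7 against 1 for host by LSK presence and 0 against 3 for tissue by host. Centring gave 8 calls for tissue in Ptprca mice and 8 for tissue by host, 1 for tissue in NSG mice, and 0 and 2 for LSK presence in Ptprca and NSG mice, the last against 7 by limma; counts of host calls with centring were 28 and 25 in GMP and mixed recipients, and 32 and 18 in marrow, against 38, 34, 46 and 34. With TMM they were 28, 29, 30 and 21. Counting error was small for both clones, which had at least 3174 recovered reads in every library of these mice.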
